A study of Mus musculus with 17 samples.

Results

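A set of 9 genes that mark microglia in their resting state were followed through aging of the mouse hippocampus. They are P2ry12, P2ry13, Tmem119, Cx3cr1, Csf1r, Sall1, Siglech, Gpr34 and Aif1, and they were taken by symbol, matched to the Ensembl identifiers, as 9 of 38355 genes counted. PolyA RNA of hand-dissected hippocampus was sequenced from untreated Wild type C57BL/6J mice. There were 5 single-end libraries of mice aged 3 months (3M), 6 at 24 months (24M), and 3 paired-end libraries each at 3 months and at 29 months (29M). The aged mice were compared with the young of the same library type, so age and library type cannot be told apart when the comparisons are set side by side. All 9 genes passed edgeR's filter on low counts in both comparisons.

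Microglia are the resident macrophages of the brain. In the undisturbed brain they carry a set of surface receptors with which they sense nucleotides, chemokines and growth factors, and a few transcription factors that keep this state. Many of these genes are known to be turned down when microglia take on an inflammatory or disease-associated state. In whole tissue, fewer cells of a type and less RNA per cell cannot be told apart, and the same holds for more cells and more RNA.

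Total counts on genes ran from 19144461 to 28438296 in the 3M single-end libraries, and from 9213474 to 19756411 at 24M. Paired-end totals were 10977976 to 15054972 for 3M and 10991389 to 13563541 for 29M. The libraries of 24M replicates 1 and 4 differed by less than sampling noise and were counted as 1 sample, their rounded mean, which leaves 5 samples at 24M. The labels do not say that the libraries of a group came from separate mice, so p-values measure only the spread between these samples, which may be technical. A further library stood apart, since 12 genes of the striatum summed to 844.2 CPM (counts scaled to the library total, after TMM normalisation) in 3M single-end replicate 4 and to 269.4 to 335.9 in the other 3M single-end samples. Gm42418 took 4.59% of the counts in 29M replicate 2 and 2.40% in 3M paired-end replicate 1, while the leading gene of every other library took 0.429% to 0.766%. Genes of hippocampal neurons were present in every group, with sums of 998.4 to 1215 CPM for 10 genes.

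The 250 bases before and 50 bases after the annotated start were given by RefSeq (GRCm38.p6) for 6 of the 9 genes, P2ry12, P2ry13, Cx3cr1, Sall1, Siglech and Aif1. The windows of 4 of them are shown because they cover the receptor pair P2ry12 and P2ry13, which lie side by side on chromosome 3, and the windows in which a word known from microglial transcription factors was found. The words searched on both strands were GAGGAA, the core of PU.1 sites, a pair of GAAA half-sites of interferon regulatory factors with 2 bases between them, and TTCNNNGAA, the STAT half-sites. Of 32851 promoter windows, 28.3% held GAGGAA, 3.44% the GAAA pair and 8.30% TTCNNNGAA, and no match overlapped another in the windows shown. Capitals mark the matches, and the sequences run 5′ to 3′ along the strand of the gene.
P2ry12: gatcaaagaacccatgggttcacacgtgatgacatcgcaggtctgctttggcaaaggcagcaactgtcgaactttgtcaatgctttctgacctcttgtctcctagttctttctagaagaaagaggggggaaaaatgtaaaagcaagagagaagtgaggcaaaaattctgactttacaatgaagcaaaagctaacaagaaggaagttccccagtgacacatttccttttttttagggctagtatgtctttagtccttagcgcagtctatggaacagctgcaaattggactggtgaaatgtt
P2ry13: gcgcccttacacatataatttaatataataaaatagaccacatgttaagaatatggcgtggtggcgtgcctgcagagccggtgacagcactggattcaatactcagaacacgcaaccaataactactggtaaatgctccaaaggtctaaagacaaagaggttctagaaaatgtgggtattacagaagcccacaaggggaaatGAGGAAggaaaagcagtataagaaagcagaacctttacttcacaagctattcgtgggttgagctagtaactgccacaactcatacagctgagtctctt
Siglech: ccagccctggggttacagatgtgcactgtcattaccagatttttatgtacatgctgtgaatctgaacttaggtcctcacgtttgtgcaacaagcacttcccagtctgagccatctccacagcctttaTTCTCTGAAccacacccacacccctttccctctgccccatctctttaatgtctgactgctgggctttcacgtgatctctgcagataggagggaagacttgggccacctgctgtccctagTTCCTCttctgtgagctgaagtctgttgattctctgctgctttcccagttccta
Aif1: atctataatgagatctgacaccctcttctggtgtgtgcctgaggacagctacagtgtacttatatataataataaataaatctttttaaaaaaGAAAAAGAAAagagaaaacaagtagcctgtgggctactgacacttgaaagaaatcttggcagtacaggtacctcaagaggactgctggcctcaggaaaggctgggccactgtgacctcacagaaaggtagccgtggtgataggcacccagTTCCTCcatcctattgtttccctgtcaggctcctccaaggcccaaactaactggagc
The P2ry12 window lies at chr3:59262936-59263235 (minus strand), the P2ry13 window at chr3:59210833-59211132 (minus strand), the Siglech window at chr7:55767934-55768233 (plus strand) and the Aif1 window at chr17:35176003-35176302 (minus strand). GAGGAA was found 48 bases before the start of P2ry13, on the gene's strand, and on the other strand 4 bases before that of Siglech and 7 before that of Aif1. Siglech also held TTCNNNGAA and Aif1 the GAAA pair. None of the words was found in the window of P2ry12, nor in those of Cx3cr1 or Sall1, which says only that these letters were not in these windows.

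The aged hippocampus held more RNA of several homeostatic genes relative to all genes than the young one. All 9 had a log2 fold change above 0 at both ages, where 49.2% of the genes tested lay above 0 at 24M and 49.4% at 29M. The median log2 fold change of the 9 genes was 0.35 at 24M and 0.34 at 29M, with medians of -0.003 and -0.002 over all genes tested. At an adjusted p of at most 0.05, 5 of the 9 rose at 24M (P2ry12, P2ry13, Tmem119, Sall1 and Siglech) and 5 at 29M (Tmem119, Cx3cr1, Csf1r, Sall1 and Siglech), against a background of 3.21% and 2.32% of all genes rising. The count at 24M was 7 with DESeq2, 0 with libraries thinned to the smallest total and 1, Sall1, without 24M replicates 1 and 4, and that at 29M was 3 with DESeq2. The yield over all genes also changed between these fits. Genes that passed and had a log2 fold change of at least 0.5 were 210 of 15683 at 24M. They were 261 of 26441 with DESeq2, 135 of 14456 with thinned libraries and 112 of 15818 without the pair. At 29M, 202 of 15097 became 136 of 24470 with DESeq2. With the further condition of a log2 fold change of at least 0.5, 1 of the 9 genes was called at each age, P2ry12 at 24M and Tmem119 at 29M, where 1.34% of genes were called higher in both comparisons. Neither gene was called with offsets for GC content and length in the fit (0.29 and 0.48), nor was P2ry12 with thinned libraries. No gene of the 9 was called lower, with a background of 0.638% at 24M and 0.113% at 29M, and none fell without the fold condition either (background 2.37% and 0.662%), since no fold change lay below 0 with edgeR or DESeq2. For 4 of the 9 genes at 24M (background 3.15%) and for 8 at 29M (background 11.9%) the aged samples all exceeded the young ones. Summed over the 9 genes, the 3M single-end samples held 286.2 to 326.9 CPM and the 24M samples 347.9 to 380.9, so that these sums did not overlap. The paired-end sums were 283.0 to 288.4 CPM at 3M and 353.2 to 356.8 at 29M.

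**Figure D1:**
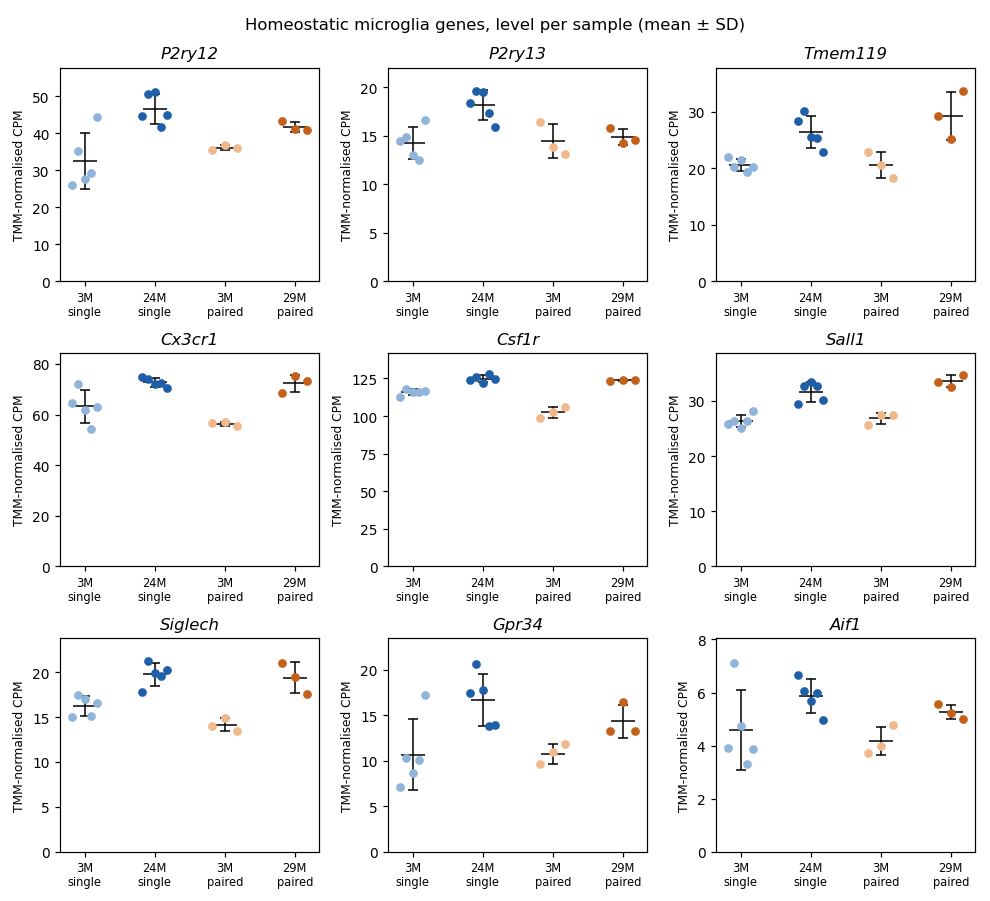
Level of each gene in every sample, in TMM-normalised CPM (vertical axes start at 0), for 3M and 24M single-end and 3M and 29M paired-end samples, with black bars for the mean ± SD (n = 5, 5, 3 and 3; 24M replicates 1 and 4 are 1 point). P2ry12 and Gpr34 show the 3M single-end sample at 44.4 and 17.2 CPM that reaches the 24M samples, and Csf1r shows the narrow groups.

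P2ry12 and P2ry13 are purinergic receptors for adenosine diphosphate, and P2ry12 is known to steer microglial processes to sites of injury. P2ry12 (ENSMUSG00000036353, chromosome 3, 59216272 to 59262871, minus strand, GRCm38, GENCODE M21) stood at 26.01, 35.2, 27.6, 29.1 and 44.4 CPM in the 3M single-end samples and at 44.5, 50.5, 51.1, 41.7 and 44.9 at 24M. Of the 3M samples 4 lay below all 24M samples, and replicate 5 lay within them. The log2 fold change was 0.52 (SE 0.13, 95% confidence interval 0.25 to 0.80) and the adjusted p 0.0342 with edgeR's quasi-likelihood test and Benjamini-Hochberg adjustment, n = 5 against 5. In the paired-end samples P2ry12 held 35.4, 36.8 and 35.97 CPM at 3M and 43.3, 41.1 and 40.7 at 29M. These groups did not overlap, and the log2 fold change of 0.21 (SE 0.06, interval 0.08 to 0.34, n = 3 against 3) had an adjusted p of 0.0815 with edgeR. P2ry12 lost its call at 24M when any of the 3M single-end replicates 1, 3 and 4 or of the 24M replicates 2, 3 and 6 was left out, and its log2 fold change over the libraries left out in turn ran from 0.45 to 0.66, with 5 of 11 at an adjusted p of at most 0.05. The call was also lost when 24M replicates 1 and 4 were left out together (adjusted p = 0.0683, edgeR).

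P2ry13 (ENSMUSG00000036362), the neighbour of P2ry12 at 59207892 to 59210882 of chromosome 3, stood at 14.4, 14.9, 13.03, 12.5 and 16.7 CPM at 3M and at 18.4, 19.6, 19.5, 17.4 and 15.9 at 24M. A single 24M sample, replicate 6, fell within the 3M range, and the gene rose with a log2 fold change of 0.35 (SE 0.09, interval 0.16 to 0.54, adjusted p = 0.0407, edgeR). The paired-end samples held 16.4, 13.8 and 13.1 CPM at 3M and 15.8, 14.3 and 14.5 at 29M. The groups overlapped and the log2 fold change was 0.04 (SE 0.10, interval -0.17 to 0.26, adjusted p = 0.865, edgeR). Both genes lie within the span of Med12l on the opposite strand, with 9 and 0 bases of shared exon, and the libraries do not mark strand. For Med12l the log2 fold change was 0.09 in the 24M comparison and -0.02 in the 29M comparison (edgeR, adjusted p = 0.481 and 0.917).

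Gpr34 (ENSMUSG00000040229, chromosome X, 13632089 to 13640858, plus strand), a receptor of the same family that responds to lysophosphatidylserine, had the highest fold change of the 9 genes at 24M. It stood at 7.14, 10.3, 8.65, 10.04 and 17.2 CPM at 3M and at 17.4, 20.6, 17.7, 13.9 and 13.9 at 24M. Again 3M replicate 5 lay within the 24M samples and the other 4 below them, and the log2 fold change of 0.65 (SE 0.20, interval 0.23 to 1.08) gave an adjusted p of 0.0644 with edgeR. Without 3M single-end replicate 5 it was 0.89 (adjusted p = 0.00301, edgeR), the only one of 11 such fits that passed. At 29M the samples held 13.3, 16.5 and 13.3 CPM against 9.59, 10.9 and 11.8 at 3M, without overlap. The log2 fold change was 0.41 (SE 0.11, interval 0.16 to 0.65, adjusted p = 0.0787, edgeR). The gene lies within Cask on the opposite strand with no shared exon, and Cask came to -0.10 and -0.19 at the 2 ages (adjusted p = 0.154 and 0.0654, edgeR).

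Cx3cr1, the receptor of the neuronal chemokine fractalkine, and Csf1r, the receptor on which microglial survival depends, both rose at 29M and passed the test there with every library left out in turn. Cx3cr1 (ENSMUSG00000052336, chromosome 9, 119901616 to 120069879, minus strand, a span that also covers other genes, none of which in the files shares exon with it) stood at 64.6, 72.2, 61.7, 54.5 and 62.9 CPM at 3M and at 74.8, 74.0, 72.0, 72.3 and 70.4 at 24M. Only 3M replicate 2 reached the 24M samples, and the log2 fold change was 0.20 (SE 0.06, interval 0.06 to 0.34, adjusted p = 0.0747, edgeR). At 29M the levels of 68.6, 75.1 and 73.2 CPM lay above 56.5, 56.9 and 55.5 at 3M. This rise was 0.36 on the log2 scale (SE 0.05, interval 0.24 to 0.47, adjusted p = 0.00234, edgeR).

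Csf1r (ENSMUSG00000024621, chromosome 18, 61100598 to 61132149, plus strand) varied least between samples in 3 of the 4 groups, all but the 3M paired-end samples. It held 112.7, 118.1, 115.7, 116.0 and 117.0 CPM at 3M and 124.1, 126.0, 121.9, 127.7 and 124.6 at 24M. These groups did not overlap, although the difference was small, with a log2 fold change of 0.11 (SE 0.04, interval 0.03 to 0.19, adjusted p = 0.100, edgeR). In the paired-end samples 98.7, 102.9 and 105.9 CPM at 3M stood against 123.1, 123.9 and 124.0 at 29M. Csf1r rose there by a log2 fold change of 0.27 (SE 0.04, interval 0.19 to 0.35, adjusted p = 0.00204, edgeR). Csf1r shares 873 exon bases with Hmgxb3 on the other strand, for which the log2 fold changes were -0.11 and 0.02.

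Of the ligands of both receptors, 1 fell at 24M and 1 rose at both ages. Cx3cl1, which encodes fractalkine, fell at 24M from 724.9 ± 56.0 to 561.8 ± 12.02 CPM (SD, n = 5 each), or -0.37 on the log2 scale (SE 0.05, adjusted p = 0.00278, edgeR), and had -0.16 in the 29M comparison (SE 0.04, adjusted p = 0.0612, edgeR). Csf1, a ligand of Csf1r, rose at both ages, by 0.34 (SE 0.05, adjusted p = 0.00547, edgeR) and 0.44 (SE 0.07, adjusted p = 0.00306, edgeR). The other ligand, Il34, had -0.21 and -0.07 (edgeR, adjusted p = 0.190 and 0.679). Entpd1, the ectonucleotidase that degrades adenosine triphosphate and diphosphate, had 0.13 and 0.10. The receptor chain Tgfbr1, through which transforming growth factor beta maintains microglial identity, rose by 0.46 in the 24M comparison (adjusted p = 0.0343, edgeR), with 0.21 in the other (adjusted p = 0.0765, edgeR), and its ligand gene Tgfb1 had 0.23 at both ages.

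Tmem119, a transmembrane protein used to tell microglia from other macrophages, rose at both ages. Tmem119 (ENSMUSG00000054675, chromosome 5, 113793729 to 113800516, minus strand) stood at 21.96, 20.3, 21.5, 19.3 and 20.2 CPM at 3M and at 28.4, 30.1, 25.6, 25.4 and 22.9 at 24M. The lowest aged sample was above the highest 3M sample, and the log2 fold change was 0.36 (SE 0.08, interval 0.20 to 0.52, adjusted p = 0.0202, edgeR). The paired-end samples held 22.9, 20.6 and 18.3 CPM at 3M and 29.2, 25.1 and 33.6 at 29M, which is a log2 fold change of 0.51 (SE 0.11, interval 0.29 to 0.74, adjusted p = 0.0183, edgeR). Left out in turn, 3M paired-end replicate 3, 29M replicate 1 and 29M replicate 3 each ended that call, with adjusted p values of 0.0759, 0.0860 and 0.0954 (edgeR).

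Siglech, a sialic acid-binding lectin that signals through the adaptor Tyrobp, also rose at both ages. Siglech (ENSMUSG00000051504, chromosome 7, 55768178 to 55778925, plus strand) stood at 15.1, 17.5, 17.0, 15.1 and 16.6 CPM at 3M and at 17.8, 21.2, 20.0, 19.6 and 20.2 at 24M, without overlap. Its log2 fold change was 0.28 (SE 0.07, interval 0.13 to 0.44, adjusted p = 0.0391, edgeR). At 29M the samples held 21.03, 19.5 and 17.6 CPM against 14.01, 14.9 and 13.5, a log2 fold change of 0.45 (SE 0.09, interval 0.25 to 0.64, adjusted p = 0.0175, edgeR). With DESeq2 the adjusted p of Siglech at 29M was 0.0686, and at 24M edgeR gave 0.0802 with the offsets for GC content and length and 0.105 with thinned libraries. Tyrobp, which Siglech and Trem2 both use, was called at both ages, with 0.60 (adjusted p = 0.00427, edgeR) and 0.81 (adjusted p = 0.00114, edgeR).

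Sall1, a zinc finger transcription factor that in the adult brain is largely confined to microglia, rose at both ages. Sall1 (ENSMUSG00000031665, chromosome 8, 89027235 to 89044162, minus strand) stood at 25.8, 26.4, 25.1, 26.4 and 28.1 CPM at 3M and at 29.5, 32.7, 33.5, 32.6 and 30.1 at 24M. The groups did not overlap, and the log2 fold change was 0.27 (SE 0.06, interval 0.14 to 0.39, adjusted p = 0.0226, edgeR). At 29M, 33.4, 32.6 and 34.7 CPM stood above 25.7, 27.4 and 27.4, with a log2 fold change of 0.32 (SE 0.06, interval 0.19 to 0.46, adjusted p = 0.0140, edgeR). DESeq2 gave Sall1 an adjusted p of 0.0815 at 29M, and thinned libraries gave 0.183 at 24M with edgeR. Of 14 other transcription factors of microglia, 3 passed both thresholds upward at 24M and 1 did at 29M, with medians of 0.07 and 0.21 and none called lower. Over all genes tested, 1.34% were called higher at each age, and 0.638% and 0.113% lower. Irf8 was called at both ages, with 0.57 (adjusted p = 0.00520, edgeR) and 0.85 (adjusted p = 0.00445, edgeR), and Runx1 (0.77, adjusted p = 0.0350, edgeR) and Fli1 (0.52, adjusted p = 0.0482, edgeR) at 24M. Runx1 had 0.47 and Fli1 -0.10 at 29M. Spi1, which encodes PU.1, had -0.04 and 0.49 (adjusted p = 0.941 and 0.185, edgeR), and Mef2c, which neurons also express, -0.50 and -0.15, neither of them past the threshold.

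Aif1, the gene of the IBA1 protein by which microglia are stained, had the lowest counts, 44 to 137 per sample, and passed at neither age. Aif1 (ENSMUSG00000024397, chromosome 17, 35170991 to 35176068, minus strand) stood at 3.91, 7.12, 4.73, 3.31 and 3.85 CPM at 3M and at 6.67, 6.07, 5.67, 6.00 and 4.95 at 24M. The 3M replicate 2 was above all 24M samples, and the log2 fold change was 0.36 (SE 0.18, interval -0.03 to 0.76, adjusted p = 0.223, edgeR). Without that replicate it was 0.56 (adjusted p = 0.0401, edgeR). The paired-end values were 3.74, 3.99 and 4.77 CPM at 3M and 5.55, 5.23 and 5.01 at 29M, without overlap, with a log2 fold change of 0.34 (SE 0.16, interval -0.00 to 0.69, adjusted p = 0.294, edgeR).

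**Figure D2:**
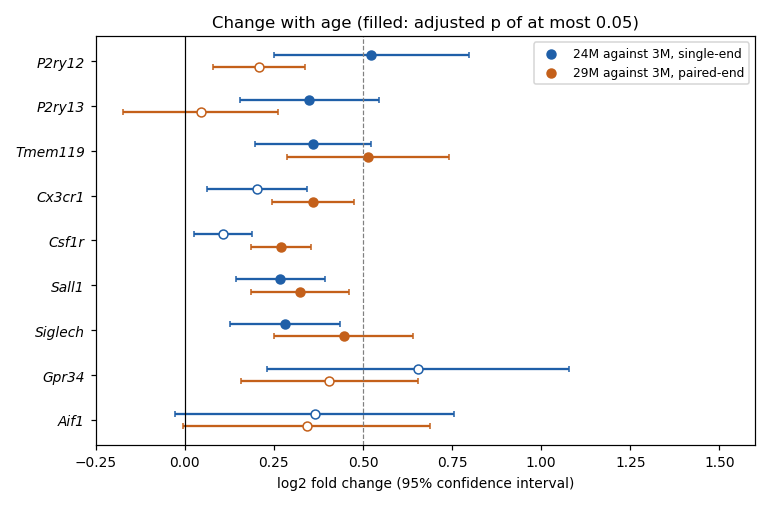
Log2 fold change of each gene (horizontal axis) with its 95% confidence interval, for 24M against 3M (blue, n = 5 against 5) and 29M against 3M (orange, n = 3 against 3), filled where the adjusted p was at most 0.05, with a dashed line at 0.5. All points lie above 0, and the widest interval is that of Gpr34 at 24M, from 0.23 to 1.08.

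Whether the change at 29M differed from that at 24M was tested in 1 fit over the 4 groups. For 5 of the 9 genes the estimate was larger at 29M, and the differences (29M effect minus 24M effect, log2) ran from -0.32 for P2ry12 to 0.16 for Siglech. None of the 9 passed with edgeR or DESeq2, and none of 16055 genes did with edgeR, nor of 27331 with DESeq2, although 1674 genes and 2 of the 9 had an unadjusted p under 0.05 with edgeR. The smallest adjusted p among the 9 was 0.392, for Csf1r, with a difference of 0.16 (interval 0.05 to 0.27). P2ry13 had a difference of -0.31 (interval -0.62 to -0.00, adjusted p = 0.469, edgeR), and for P2ry12 the interval was -0.70 to 0.07. Without 3M single-end replicate 5, 9 genes passed upward and 83 downward with edgeR, none of them among the 9. The gene calls that differ between the ages are therefore not shown to differ between them.

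Set per kilobase of exon, Csf1r was the most abundant of the 9 genes in every group, at 20.1 ± 0.350 CPM per kilobase in the 3M single-end samples (SD, n = 5). Cx3cr1 (14.02 ± 1.41) and P2ry12 (12.8 ± 2.96) followed and overlapped each other. Tmem119 stood apart from both neighbours in this order at 8.92 ± 0.461. Below it P2ry13 (5.65 ± 0.649), Gpr34 (5.11 ± 1.85), Sall1 (5.01 ± 0.212), Siglech (4.80 ± 0.327) and Aif1 (2.99 ± 0.982) each overlapped the next gene in the order. The first 4 ranks were held by the same 4 genes in all groups, while P2ry12 was ahead of Cx3cr1 in the other 3 groups, with overlap in the 24M and 29M samples and without it at 3M in the paired-end samples.

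The 9 genes differed in how far the samples of a group spread. In the 3M single-end group the SD was 36.2% of the mean for Gpr34, 32.8% for Aif1, 23.2% for P2ry12, and between 1.74% and 11.5% for the other 6. Gpr34 and P2ry12 have the transcripts poorest in G and C, 37.1% and 38.6%, and 1.17% and 2.83% of tested genes had a lower content. Tmem119 has the richest, 59.1%, and 93.4% of tested genes lie below it. An offset for GC content and length was fitted in each library by a smooth curve over all genes. For P2ry12 this offset (log2) ran from -0.32 in replicate 1 to 0.10 in replicate 5 of the 3M single-end group and from -0.02 to 0.23 at 24M, while in the paired-end libraries it lay between -0.06 and 0.04. With these offsets in the fit, P2ry12 came to 0.29 on the log2 scale in the 24M comparison, under the fold threshold (adjusted p = 0.0481, edgeR), and to 0.23 in the 29M comparison (adjusted p = 0.0389, edgeR). Gpr34 had 0.39 (adjusted p = 0.0998, edgeR) and 0.43 (adjusted p = 0.0423, edgeR). Tmem119 had 0.47 and 0.48, so that with the offsets 0 of the 9 genes were called at either age by the fold rule, 4 rose at 24M and 7 at 29M at an adjusted p of at most 0.05, where 2.41% and 2.38% of all genes rose in the same fits. All 9 fold changes stayed above 0. The offsets were added after the spread of these genes had been seen.

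**Figure D3:**
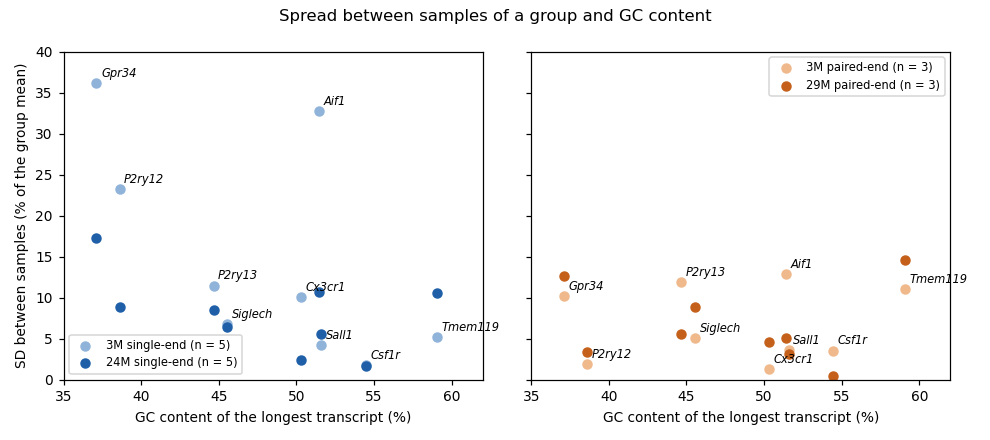
SD between the samples of a group as a percentage of the group mean (vertical axis) against the GC content of the longest transcript (horizontal axis) for the 9 genes, in single-end groups (left, n = 5 each) and paired-end groups (right, n = 3 each). Gpr34 at 37.1% GC and P2ry12 at 38.6% GC reach 36.2% and 23.2% in the 3M single-end group, and Aif1 at 51.4% GC reaches 32.8%.

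The genes whose level followed the mean of the 9 genes most closely within groups were of low GC content, as are P2ry12 and Gpr34. Over 16 samples and 14575 genes, with each group centred on its own mean, the highest Pearson correlations were those of Vstm2a (0.92), Fcho2 (0.91), Fgd4 (0.90), Tgfbr1 (0.89), Hapln1 (0.88), Chmp2b (0.88), Sc5d (0.87), Zfp229 (0.87), Lcorl (0.87) and Atad5 (0.86). All 10 lie between 36.7% and 43.1% GC, below the median of 49.8% over tested genes. Of the 9 genes themselves, Cx3cr1 (50.3%), Aif1 (51.4%), Sall1 (51.6%), Csf1r (54.5%) and Tmem119 (59.1%) lie above that median and the others below it. Among the 10, only Tgfbr1 was in one of the lists used here, that of ligands and partners of the 9 genes. These points share libraries and depth, so the values are descriptions. The mean of the 9 genes deviated by -0.14 to 0.15 (log2) in the single-end samples and by -0.008 to 0.016 in the paired-end samples. The correlations therefore rest mostly on the single-end samples. Set against the mean of the other 8, P2ry12 had 0.73, P2ry13 0.62, Cx3cr1 0.49, Gpr34 0.47, Sall1 0.41, Siglech 0.37, Aif1 0.26, Csf1r 0.26 and Tmem119 0.07. Of the other genes, 0.892% came to at least the value of P2ry12, 5.39% to that of P2ry13 and 8.38% to that of Gpr34. The share was 13.1% for Cx3cr1, 16.3% for Sall1, 19.5% for Siglech, 27.2% for Csf1r, 28.0% for Aif1 and 43.3% for Tmem119.

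A further 16 genes of homeostatic microglia moved less, with medians of 0.18 and 0.21. With edgeR none was called at 24M, where 7 had an unadjusted p under 0.05 and DESeq2 called 0, and 1 was called at 29M, Rnase4 (0.53, adjusted p = 0.00979, edgeR), while 4 and 3 rose at an adjusted p of at most 0.05. Over all genes tested, edgeR called 1.34% higher at each age. At an adjusted p of at most 0.05, 3.21% of all genes rose at 24M and 2.32% at 29M. Among 16 genes shared by microglia and macrophages the medians were 0.47 and 0.64, with 4 called higher in the 24M comparison and 11 in the other. They include Itgb2 (0.56 and 0.999), a chain of the integrins of myeloid cells, Ptprc (0.61 and 0.97; called at 29M), Ctss (0.90 and 0.82), a lysosomal protease, and Cd68 (0.50 and 0.75; called at 29M). Of 24 genes of disease-associated microglia, 23 and 21 were tested, 9 and 7 were called higher, and the medians were 0.42 and 0.28. Clec7a (2.53 and 3.21), Itgax (2.03 and 3.10), Lyz2 (1.28 and 1.55) and Gpnmb (0.68 and 1.20) had the largest values at 29M among those called. These 4 were picked for their size and do not stand for the list. Its median lay above the 0.35 of the 9 homeostatic genes at 24M and below their 0.34 at 29M. Among 18 tested ligands and partners of the 9 genes, 1 was called higher at each age, Tyrobp, and the medians were 0.19 and 0.10. Lists overlap in Csf1 and Tyrobp.

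**Figure D4:**
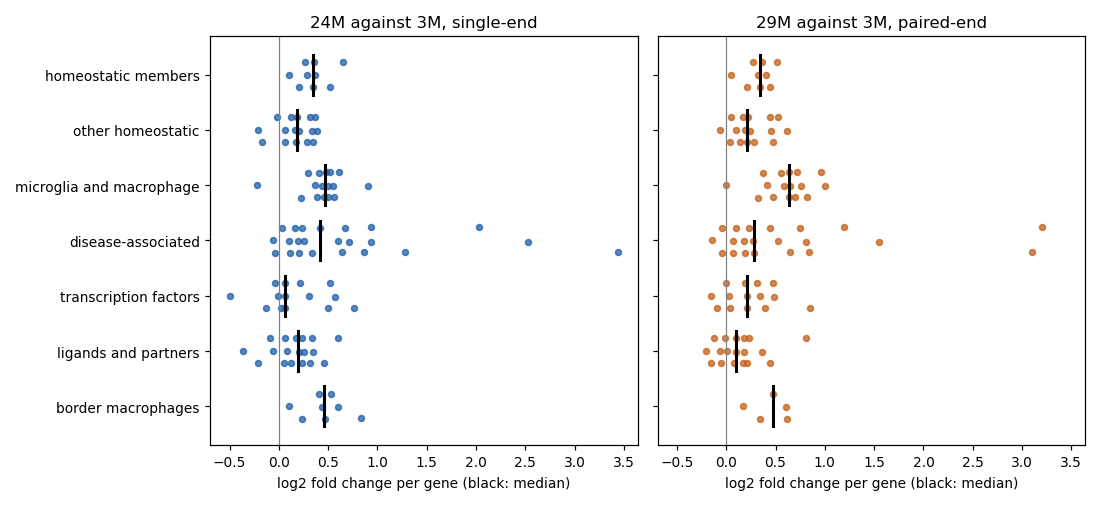
Log2 fold change of every tested gene (points) and the median (black line) in 7 gene lists, for 24M against 3M (left) and 29M against 3M (right). The 9 homeostatic genes have medians of 0.35 and 0.34 and lie close together, between 0.11 and 0.65 and between 0.04 and 0.51, while genes of disease-associated microglia reach 3.44 and 3.21, with medians of 0.42 and 0.28.

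Macrophages outside the parenchyma carry some of these genes too. Of 10 genes of border macrophages, which share Csf1r, Cx3cr1 and Aif1 with microglia, 8 and 5 were tested and 0 were called with edgeR, with 3 and 0 at an unadjusted p under 0.05, 1 (Cd163) and 0 called by DESeq2, and medians of 0.45 and 0.48. All 8 and 5 tested genes had a log2 fold change above 0. Their sums were 24.1 to 33.7 CPM at 3M and 28.5 to 39.4 at 24M, and 26.2 to 28.9 and 25.3 to 42.0 in the paired-end samples, so the sums overlapped. Of the mean sum of 29.2 CPM in the 3M single-end samples, Stab1 held 18.7, and its log2 fold change at 24M was 0.10. Of 8 genes of monocytes and granulocytes 2 and 1 were tested, with 0 called by edgeR, 0 at an unadjusted p under 0.05, and 0 called by DESeq2. The 2 at 24M were Fn1 and S100a9. In the 3M single-end samples Fn1 held 74.3 of the list's mean sum of 76.5 CPM, and S100a9 held 0.591. So few tested genes cannot show whether such cells were present. No gene of the 8 for lymphocytes passed the filter, and their sums stayed at 0.530 to 4.13 CPM over all samples. Of the other cells, 10 genes each of neurons had medians of -0.06 and -0.07, of astrocytes 0.05 and 0.05, and of endothelium and pericytes 0.10 and -0.12. For 9 genes of oligodendrocytes the medians were 0.14 and 0.09. With edgeR 0 of them were called, and 0 and 1 rose at an adjusted p of at most 0.05 (background 3.21% and 2.32%). DESeq2 called 1 and 0. Gfap, an astrocyte gene, was called at both ages (0.66 and 0.80), and at 24M the endothelial gene Cldn5 fell (-0.60) while Rgs5, a pericyte gene, rose (0.40, adjusted p = 0.0175, edgeR). No other gene of the endothelium and pericyte list reached an adjusted p of at most 0.05 at 24M with edgeR. At 29M none of that list did, and the highest log2 fold change in it was 0.05, so neither gene passed at both ages. The difference between the ages (29M effect minus 24M effect, log2) did not pass for either gene. It was 0.33 for Cldn5 (adjusted p = 0.585, edgeR) and -0.53 for Rgs5 (adjusted p = 0.392, edgeR). The part of border macrophages in the levels of the shared genes was not tested.

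Single libraries decided several of the calls at an adjusted p of at most 0.05 (edgeR), while the directions held apart from P2ry13 at 29M. At 24M, Tmem119 passed in 10 of 11 fits with 1 library left out and failed without 24M replicate 2, and Sall1 passed in 8 and failed when 3M single-end replicate 1, 24M replicate 2 or 24M replicate 3 was dropped. P2ry13 and Siglech passed in 3 of 11 each, P2ry13 without 3M replicate 5 or 24M replicates 4 or 6 and Siglech without 3M replicate 5 or 24M replicates 1 or 4. The fits without 24M replicate 1 or without 24M replicate 4 kept the other library of this pair, so no sample was lost. With both left out, the adjusted p at 24M was 0.0583 for Tmem119, 0.0360 for Sall1, 0.0890 for P2ry13 and 0.052 for Siglech (edgeR). Cx3cr1, which missed with all samples, passed without 3M single-end replicate 2 (log2 fold change 0.25, adjusted p = 0.0434, edgeR). At 29M, Cx3cr1 and Csf1r passed in all 6 fits and Tmem119, Sall1 and Siglech in 3 each. Sall1 failed without 3M paired-end replicate 1 and 29M replicates 1 and 3, and Siglech without 3M paired-end replicate 3 and 29M replicates 1 and 2.

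**Figure D5:**
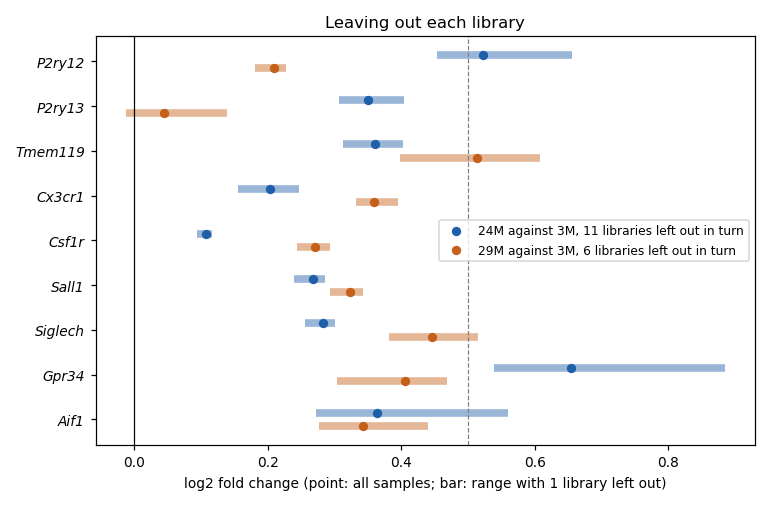
Log2 fold change (horizontal axis) of each gene with all samples (points) and the range when 1 library is left out (bars; 11 fits for 24M against 3M in blue, 6 for 29M against 3M in orange), with a dashed line at 0.5. Only P2ry13 at 29M crosses 0, from -0.013 to 0.14, and Gpr34 at 24M spans the widest range, from 0.54 to 0.89.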

How the data were processed

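Per the labels and the methods, the authors aligned the reads with STAR 2.3.0 to GRCm38.p2, counted them per gene with HTSeq and deposited raw counts, with no normalization. The sources used here do not name the counting annotation. The kit does not mark strand, so genes that overlap on opposite strands cannot be told apart. Symbols and coordinates came from GENCODE M21 (36602 of 38355 identifiers named), and promoter windows from RefSeq. Reads assigned to no feature (8.59% to 15.9% per library) and the other lines that name no gene stayed out of totals and tests.

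Counts were tested with edgeR 4.0.16 in R 4.3.3 (default filter, TMM, quasi-likelihood, Benjamini-Hochberg over 15683 genes at 24M and 15097 at 29M), and called genes had an adjusted p up to 0.05 and a log2 fold change of 0.5 or more either way. Standard errors were derived from the fold change and the F statistic. The ratio of the squared difference between libraries to its binomial variance was 0.406 for 24M replicates 1 and 4 and at least 1.23 for the other of 136 pairs. Tested on simulated data, edgeR recovered 197 of 200 changed genes among 15552 at 24M with 4 false calls. At 29M it recovered 192 of 200 among 14970, with 9 false calls. Recovery at the fold changes of the 9 genes was not tested. DESeq2 1.42.0, other filters and scalings, a replicate block, thinned libraries and each library left out were alternatives. GC and length offsets (loess) were added after the values were seen. Precision is lowest for genes below 1 CPM.

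All 9 members are named, with called and preset genes of 2 related lists, up to 4 called genes of the other lists with the largest change at 29M, and the 10 genes most alike. The members and lists were chosen with earlier results of these data known. Gfap and Cldn5 are the called genes of their lists, and Rgs5, Cd163, Fn1, S100a9 and Gm42418 were named after their values were seen. The result of a preset gene is not reported here.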

Additional observations from a re-analysis of the deposited data

Results flagged for a closer look

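The summed level of 8 lymphocyte genes in 3M single-end replicate 4 was 4.13 CPM, with 0.530 to 1.30 in the other 4 samples. Its gap to the nearest sample, 0.786 of the range of the group, passed Dixon's 95% critical value of 0.710 for 5 samples. Of 36 groups looked at, 1 passed, where 1.8 would by chance at 1 in 20. All 36 were groups of 5 samples, and the sum of the striatum genes was not among them. That sum also stood apart in this library, at 844.2 CPM against 269.4 to 335.9 in the other 3M single-end samples.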

How the results depend on the processing

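With the thresholds kept, 1 of the 9 genes was called at 24M. This became 2 with DESeq2, without the filter, with all 4 groups in 1 fit, and with 24M replicates 1 and 4 kept apart. It became 0 with the replicate block, with thinned libraries, with the offsets for GC content and length, and with 24M replicates 1 and 4 left out, and it was 5 with no fold change threshold. With 1 library left out it ranged from 0 to 2. Without the fold condition, the 5 that passed became 0 with the replicate block and with thinned libraries, and 7 with DESeq2. At 29M the count of 1 became 5 with no fold change threshold, 0 with the offsets, and 0 to 1 with 1 library left out. The median at 29M of 0.34 was 0.36 with thinned libraries, 0.35 with the offsets and 0.29 to 0.35 with 1 library left out. P2ry13 at 29M (0.04) ran from -0.013 to 0.14 with 1 library left out, and changed sign when 3M paired-end replicate 3 (-0.013) or 29M replicate 1 (-0.0019) was dropped. For all other members and settings the direction held, and for the difference between ages no member passed in any setting. Deviations of same-numbered samples correlated between -0.183 and 0.0566 over 4 pairs at 24M and between -0.161 and 0.214 over 3 at 29M. Differently numbered samples gave -0.164 to 0.252 and -0.286 to 0.331. No pairing by replicate number was seen, although so few pairs cannot exclude it. The replicate block gave 58 genes higher and 25 lower at 24M. Over all genes, the 210 higher and 100 lower at 24M became 135 and 74 with thinned libraries, 345 and 173 with all 4 groups in 1 fit, 112 and 51 with the pair left out, 313 and 150 with it kept apart, 504 and 371 with no fold change threshold, and 91 to 394 and 28 to 174 with 1 library left out. At 29M, 202 and 17 became 368 and 73 without the filter, 83 and 3 with all 4 groups, 351 and 100 with no fold change threshold, and 113 to 207 and 7 to 27 with 1 library left out. The causes were not tested. Aif1 had the lowest counts, at 44 to 137 per sample.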
